A study of Rattus norvegicus with 12 samples.

Results

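The genes described here sense, take up and move sterols, and were measured in rat liver after treatment with 3 triazole fungicides: Srebf2, Scap, Insig1, Insig2, Stard4, Npc1, Mylip and Abca1. The genes were chosen by name from a list of 8, and every probe set annotated to exactly 1 of them was taken. Probe sets were found for 7 of the 8 genes, 15 probe sets in all among 31099 on the array, and 14 of the 15 passed the filter on dim probe sets that left 21729 for testing. No probe set in the annotation used here was assigned to Npc1, a lysosomal cholesterol exporter, so it was not analysed here.

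The study dosed male Sprague-Dawley rats, 10 weeks old, by gavage every 24 h over 72 h, and measured liver RNA on 12 Affymetrix rat genome arrays, 1 animal per array. Myclobutanil and propiconazole were each given at 300 mg/kg/day and triadimefon at 175 mg/kg/day, and the fourth group was control, with 3 rats in every group. What the control rats received is not stated in the labels. The comparisons ask how each compound changed liver expression relative to control, and how myclobutanil and propiconazole differed at a matched dose. Triadimefon was given at another dose, so its values are set beside those of the other compounds without a test between them.

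Cells hold cholesterol steady through a feedback loop in the endoplasmic reticulum. SREBP-2, the product of Srebf2, is a membrane-bound transcription factor that is escorted to the Golgi by Scap and released there to switch on genes of sterol synthesis and uptake. When sterols are plentiful, the Insig proteins hold Scap back. Insig1 is itself a target of SREBPs, whereas in mouse liver Insig2 has a liver-specific transcript that insulin represses. Stard4 carries sterol between membranes and is an SREBP-2 target, Mylip marks lipoprotein receptors for breakdown, and Abca1 exports cholesterol to apolipoprotein A-I. Mylip and Abca1 are targets of the oxysterol receptor LXR. Triazoles block the sterol demethylase of fungi, whose mammalian form acts in cholesterol synthesis.

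The deposited values look like a log scale and were quantile normalized here; they are called scores. Their logarithm base and centring are unknown, so a difference is in score units and is no fold change, and levels of different probe sets have no common scale. As a sense of scale, the median array set the strongest spike-in control, cre, 2.61 units above bioB, the weakest. A difference is given ± its limma standard error, and a probe set was called at an adjusted p under 0.05. The array of myclobutanil replicate 1 stood apart, with a deposited median of 0.157 against 0.0182 to 0.0552 on the other 11 and a median correlation of 0.927 with the other arrays, against 0.962 to 0.982. The 9 hepatocyte markers with a probe set lay between percentiles 97.1 and 100 of all probe sets by their mean over the 12 arrays, a rough check of the tissue, since probe sets differ in scale. In bulk liver, fewer cells of a type and less RNA per cell cannot be told apart. The 3 comparisons against control share the control arrays.

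Insig2 was the one member gene whose main probe set was called, and it was lower with propiconazole and with triadimefon. It had scores of 1.95, 1.66 and 1.51 with propiconazole, against 2.49, 2.63 and 2.64 in control. With triadimefon the scores were 1.51, 1.44 and 1.43. All 6 of these treated livers lay below all 3 control livers. With myclobutanil the scores were 2.22, 1.99 and 2.503, and the highest of them lay above the lowest control liver.

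Relative to control, Insig2 fell by 0.882 ± 0.135 units with propiconazole (limma adjusted p = 0.0153, n = 3 per group) and by 1.13 ± 0.135 units with triadimefon (limma adjusted p = 0.00889). With myclobutanil the difference was -0.347 ± 0.135 and did not pass (limma adjusted p = 0.176). The 95% interval for myclobutanil ran from -0.643 to -0.0517, and with any 1 array left out the difference lay between -0.489 and -0.226. It was -0.332 without myclobutanil replicate 1, -0.226 without replicate 2 and -0.489 without replicate 3 (limma adjusted p = 0.211, 0.298 and 0.11). On the deposited values as given it was -0.544 and after median centring -0.566 (limma adjusted p = 0.091 and 0.0812). Among the 21729 tested probe sets, this one had the 4th lowest difference with triadimefon and the 11th lowest with propiconazole. From the lowest up, the group means were 1.46 ± 0.0411 with triadimefon, 1.70 ± 0.225 with propiconazole, 2.24 ± 0.256 with myclobutanil and 2.59 ± 0.0839 in control (SD, n = 3). In that order, triadimefon and propiconazole overlapped in their values, propiconazole and myclobutanil did not, and myclobutanil and control overlapped. A moderated F test over the 4 groups also called Insig2 (limma adjusted p = 0.0124), and no other main probe set of the members.

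A second Insig2 probe set, 1393690_at, gave the same order of groups. Its scores were 1.84, 1.91 and 2.43 with myclobutanil, 1.78, 1.69 and 1.42 with propiconazole, 1.27, 1.27 and 1.18 with triadimefon, and 2.26, 2.28 and 2.53 in control. Again the propiconazole and triadimefon livers lay below every control liver. It fell by 0.727 ± 0.151 with propiconazole (limma adjusted p = 0.0416) and by 1.12 ± 0.151 with triadimefon (limma adjusted p = 0.0107), and the myclobutanil difference was -0.294 ± 0.151 (limma adjusted p = 0.287).

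Some of these calls were lost when 1 array was left out, while the size of the falls moved little. Such a fit also has fewer arrays, and the part of this in the lost calls was not tested. With any 1 of the 12 arrays left out, the main Insig2 probe set differed by -1.01 to -0.782 with propiconazole and by -1.17 to -1.07 with triadimefon. The propiconazole call was lost without control replicate 2 (limma adjusted p = 0.0768), control replicate 3 (0.0734) or propiconazole replicate 3 (0.0671). The triadimefon call was lost without control replicate 3 (limma adjusted p = 0.0522) or triadimefon replicate 2 (0.0509). For 1393690_at, the propiconazole call held only when a myclobutanil array was the one left out, and was lost in the other 9 fits (limma adjusted p up to 0.188). Its triadimefon call was lost without control replicate 1 (limma adjusted p = 0.0513), control replicate 3 (0.0645) or triadimefon replicate 2 (0.0577). In the F test Insig2 was not called without control replicate 1, 2 or 3.

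**Figure D1:**
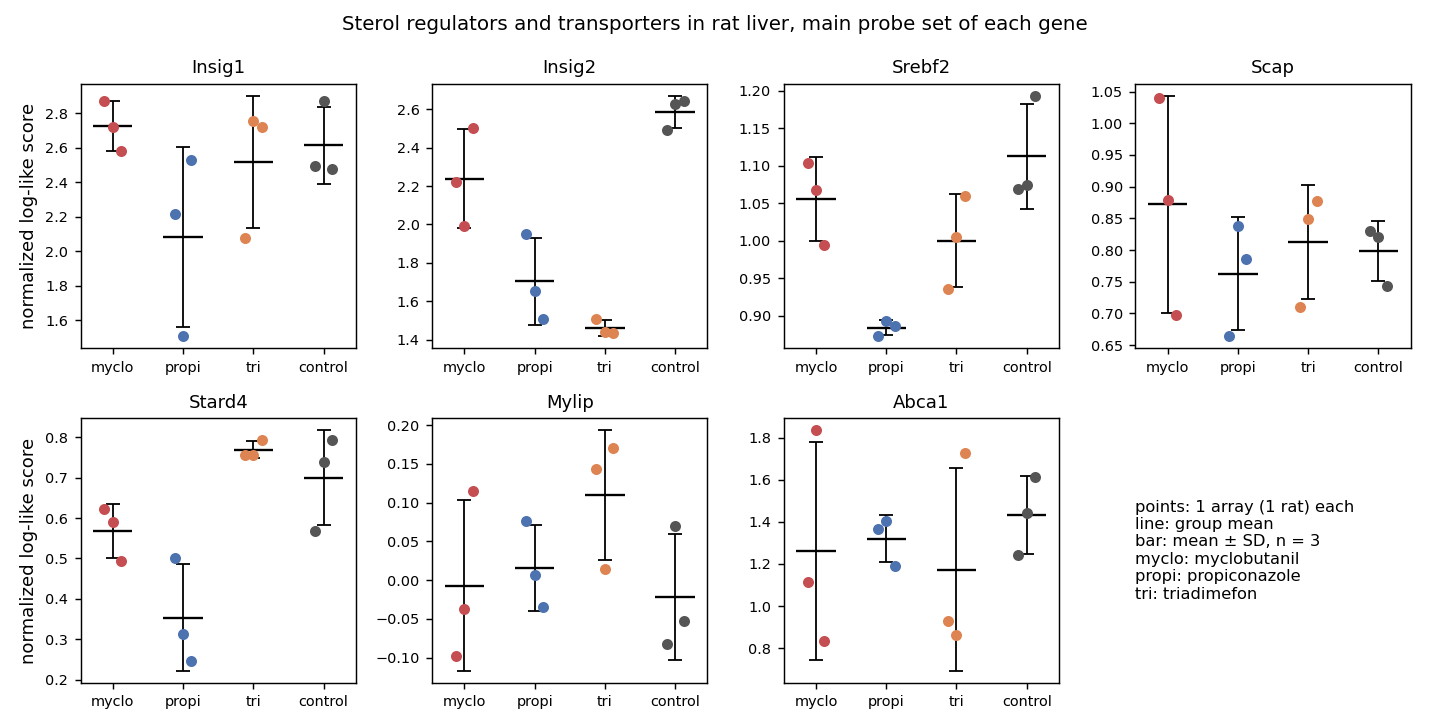
Normalized log-like score (vertical axes, each with its own range) of the main probe set of 7 genes by group; points are single arrays, lines are group means and bars are SD (n = 3). Insig2 sits between 1.43 and 1.95 in the propiconazole and triadimefon livers and between 2.49 and 2.64 in control livers, while the groups overlap for Scap, Mylip and Abca1.

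Insig1 passed no test. Its scores were 2.87, 2.72 and 2.58 with myclobutanil, 2.22, 1.51 and 2.53 with propiconazole, 2.08, 2.76 and 2.72 with triadimefon, and 2.49, 2.87 and 2.48 in control. Propiconazole replicate 2 was the lowest liver of the series for this gene, and every treated group overlapped control. The differences from control were 0.109 ± 0.247 with myclobutanil, -0.530 ± 0.247 with propiconazole and -0.0957 ± 0.247 with triadimefon (limma adjusted p = 0.821, 0.359 and 0.913). Their 95% intervals reached from -0.433 to 0.65, from -1.07 to 0.0119 and from -0.637 to 0.446. In score units, a fall as large as that of Insig2 lay within the interval for propiconazole and outside it for triadimefon. Probe sets of different genes have no common scale, so equal falls in score need not be equal changes of RNA. With propiconazole the Insig1 difference was -0.244 without propiconazole replicate 2 and lay between -0.750 and -0.401 with any other array left out. With triadimefon it was 0.125 without triadimefon replicate 1 and 0.0295 without control replicate 2, so its sign turned, and it was -0.213 and -0.197 without triadimefon replicates 2 and 3. With myclobutanil the sign turned on the deposited values as given (-0.0597) and after median centring (-0.0814).

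Insig1 was then set beside Insig2 within each liver. The 2 probe sets have no common scale, so only changes of their gap between groups are read. The score of Insig1 minus that of the main Insig2 probe set was 0.648, 0.727 and 0.0774 with myclobutanil, 0.267, -0.147 and 1.02 with propiconazole, 0.569, 1.32 and 1.29 with triadimefon, and 0.00134, 0.244 and -0.162 in control. The triadimefon livers lay above all control livers, and the other compounds overlapped control. Relative to control this gap was wider by 1.03 with triadimefon, 0.456 with myclobutanil and 0.352 with propiconazole. The exact permutation test of the gap over all 4 groups did not pass (two-sided, p = 0.0958 over 369600 assignments of the 12 arrays). For single compounds the exact two-sided permutation p was 0.1 with triadimefon, the smallest that 3 arrays against 3 allow, 0.2 with myclobutanil and 0.4 with propiconazole, or 0.3, 0.3 and 0.4 after Benjamini-Hochberg adjustment over the 3. The change with propiconazole was 0.0315 without propiconazole replicate 3, 0.618 without propiconazole replicate 2 and 0.197 against the second Insig2 probe set. With 1 array left out the change lay between 0.339 and 0.672 with myclobutanil and between 0.902 and 1.27 with triadimefon. Without propiconazole replicate 3 the 4-group exact permutation p was 0.0365. Over the 12 arrays the test thus did not show that Insig1 and Insig2 responded unequally.

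**Figure D2:**
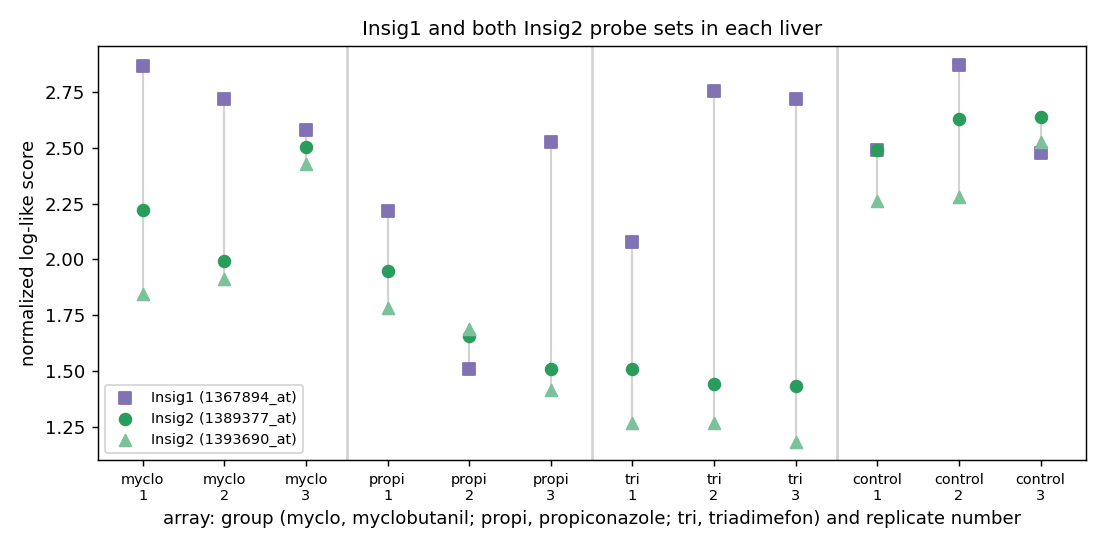
Normalized log-like score (vertical axis) of Insig1 and of the pair of Insig2 probe sets in each of the 12 livers, ordered by group (horizontal axis); grey lines join the values of 1 liver. In triadimefon livers the main Insig2 probe set lies at 1.51 or below, against 2.49 or above in control, while Insig1 overlaps control.

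RefSeq (GRCr8) held a promoter window, 250 bases before the annotated start, for 6 of the 7 measured genes. Insig1 and Abca1 are printed because they carry the feedback and efflux comparison and their windows reach outside the annotated span of the gene. Only the bases outside that span are shown, 5′ to 3′ on the strand of the gene, with capitals for the motifs searched. The Insig1 stretch is chr4:8057813-8058019 (minus strand, 207 bases) and the Abca1 stretch is chr5:72596564-72596723 (minus strand, 160 bases).
Insig1: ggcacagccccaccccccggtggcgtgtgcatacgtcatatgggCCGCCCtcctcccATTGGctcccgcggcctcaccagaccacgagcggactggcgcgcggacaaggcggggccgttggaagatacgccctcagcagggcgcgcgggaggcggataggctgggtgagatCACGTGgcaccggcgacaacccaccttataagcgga
Abca1: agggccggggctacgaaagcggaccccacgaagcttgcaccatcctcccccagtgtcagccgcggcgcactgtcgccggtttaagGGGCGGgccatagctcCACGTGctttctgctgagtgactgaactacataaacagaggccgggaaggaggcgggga

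On both strands of each 250-base window the search covered a sterol regulatory element, TCACNCCAC, the NF-Y box CCAAT, the Sp1 box GGGCGG and the E-box CACGTG. These motifs do not overlap one another in the printed stretches. The E-box was in the windows of Insig1, Scap and Abca1 and in 5.59% of all 33469 RefSeq windows of that length. The NF-Y box was in those of Insig1, Insig2, Srebf2 and Mylip (34.0% of all windows), and the Sp1 box in those of Insig1, Srebf2, Scap, Mylip and Abca1 (30.5%). The exact sterol regulatory element was in 0 of the 6 windows and in 0.974% of all windows, which says only that these letters are not in these windows. For Insig2 the RefSeq start lies 12839 bases inside the annotated gene span, and for Srebf2 533 bases inside it, so these windows do not hold the outermost start of either gene.

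Srebf2, which encodes SREBP-2, was lowest with propiconazole. Its main probe set scored 0.873, 0.893 and 0.886 with propiconazole and 1.07, 1.07 and 1.19 in control. With triadimefon it scored 0.936, 1.005 and 1.06, and with myclobutanil 1.10, 1.07 and 0.994. The propiconazole and triadimefon livers lay below all control livers, and the myclobutanil livers overlapped them. The difference from control was -0.229 ± 0.062 with propiconazole, -0.112 ± 0.062 with triadimefon and -0.0573 ± 0.062 with myclobutanil, and none passed (limma adjusted p = 0.109, 0.471 and 0.61). The second Srebf2 probe set, 1377489_at, was among the dim ones left out, with scores from -0.299 to -0.0711 over the 12 arrays.

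Scap, the escort of SREBP-2, was flat in both of its probe sets. The main one ranged from 0.664 to 1.04 over all 12 livers, with group means of 0.872 ± 0.171 for myclobutanil, 0.763 ± 0.0893 for propiconazole, 0.812 ± 0.0893 for triadimefon and 0.798 ± 0.0473 for control (SD, n = 3). The treated groups overlapped control in both. Differences of both probe sets from control lay between -0.0353 and 0.0743, and their 95% intervals stayed within -0.227 and 0.266 (limma adjusted p of 0.622 or more).

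Stard4, a sterol carrier between membranes, had lower scores with propiconazole in its main probe set, 1392516_a_at. The scores were 0.501, 0.313 and 0.247 with propiconazole and 0.569, 0.738 and 0.793 in control, with no overlap between these groups. With myclobutanil they were 0.623, 0.589 and 0.494, and with triadimefon 0.757, 0.756 and 0.793, both overlapping control. The propiconazole difference of -0.347 ± 0.0761 missed the threshold (limma adjusted p = 0.0526) and passed without myclobutanil replicate 1 (0.029) or replicate 3 (0.0493). The myclobutanil difference was -0.131 ± 0.0761 and the triadimefon difference 0.0687 ± 0.0761 (limma adjusted p = 0.343 and 0.749).

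The other Stard4 probe sets agree only in part. With propiconazole, 1386279_at stood at -0.121 ± 0.0451 and 1396521_at at -0.0752 ± 0.0823 relative to control (limma adjusted p = 0.242 and 0.736). With myclobutanil 1396521_at was above control, by 0.191 ± 0.0823 (limma adjusted p = 0.215), where the main probe set was below it. None of the 3 Stard4 probe sets was called in a comparison.

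Mylip, the ubiquitin ligase that lowers lipoprotein receptors, has 1 probe set. It averaged -0.00707 ± 0.11 with myclobutanil, 0.0161 ± 0.0555 with propiconazole, 0.109 ± 0.0838 with triadimefon and -0.0215 ± 0.0811 in control (SD, n = 3), and the groups overlapped. The largest difference was 0.131 ± 0.0628 with triadimefon, with a 95% interval from -0.00681 to 0.269 (limma adjusted p = 0.401).

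Abca1, the cholesterol exporter, was read by 4 probe sets that did not move alike. The main one, 1382431_at, varied most within groups, at 1.12, 1.84 and 0.834 with myclobutanil, 1.37, 1.402 and 1.19 with propiconazole, 0.930, 0.862 and 1.73 with triadimefon, and 1.24, 1.44 and 1.61 in control. All groups overlapped, and its differences were -0.171, -0.112 and -0.26 ± 0.26 (limma adjusted p = 0.726, 0.896 and 0.714) with myclobutanil, propiconazole and triadimefon. A further one, 1384381_at, scored 0.157, 0.221 and 0.238 with myclobutanil, 0.0875, 0.237 and 0.153 with propiconazole, 0.186, 0.348 and 0.264 with triadimefon, and 0.0431, 0.000561 and -0.125 in control. Each treated liver lay above each control liver in that probe set.

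That probe set rose with triadimefon by 0.293 ± 0.0574 (limma adjusted p = 0.0446), and was the only Abca1 probe set called. It stood at 0.232 ± 0.0574 with myclobutanil and 0.186 ± 0.0574 with propiconazole (limma adjusted p = 0.0671 and 0.155). Its triadimefon call held without myclobutanil replicate 1, myclobutanil replicate 3 or propiconazole replicate 2, and was lost in each of the other 9 fits with 1 array left out (limma adjusted p up to 0.202). The probe set 1383355_at scored 1.34, 1.32 and 1.29 with triadimefon and 0.953, 1.03 and 0.949 in control, without overlap. That difference of 0.339 ± 0.0981 did not pass (limma adjusted p = 0.163). With myclobutanil 1383355_at stood at 0.212 ± 0.0981, overlapping control, and with propiconazole at 0.194 ± 0.0981, without overlap (limma adjusted p = 0.243 and 0.397). With 1394490_at the groups overlapped, and the differences lay between 0.0495 and 0.14.

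**Figure D3:**
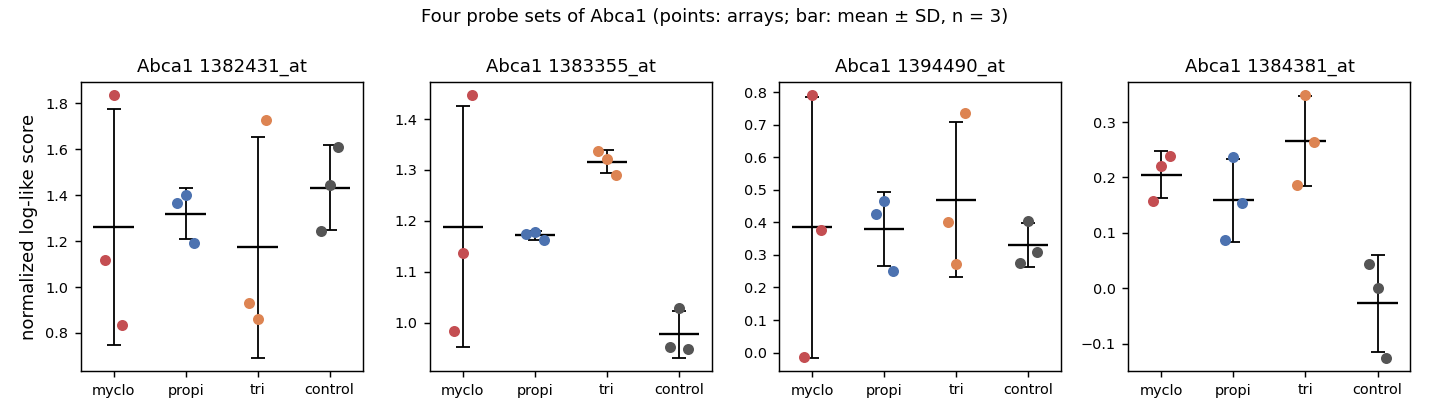
Normalized log-like score (vertical axes, each with its own range) of the 4 Abca1 probe sets by group; points are arrays, lines are means and bars are SD (n = 3). The probe set 1384381_at is above control in all 9 treated livers, whereas the main one, 1382431_at, spreads from 0.834 to 1.84 with myclobutanil.

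Counted over main probe sets, 0 of 7 member genes were called with myclobutanil, 1 was lower and 0 higher with propiconazole, and 1 was lower and 0 higher with triadimefon. At an unadjusted p under 0.05 the numbers were 1, 3 and 1, where 21.1%, 14.5% and 13.4% of all tested probe sets stood for myclobutanil, propiconazole and triadimefon. Over all tested probe sets, 1.82% were called with myclobutanil (1.03% higher, 0.787% lower), 1.43% with propiconazole (0.81% higher, 0.621% lower) and 0.769% with triadimefon (0.488% higher, 0.281% lower). The F test called 1 of 7 genes and 1.07% of all probe sets. The median difference of the 7 genes was -0.0573 with myclobutanil, -0.229 with propiconazole and -0.0957 with triadimefon, against -0.0135, -0.0123 and -0.0128 over all tested probe sets.

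Of the 14 member probe sets, 1 did not overlap control with myclobutanil, 7 with propiconazole and 5 with triadimefon. Over all tested probe sets the shares were 23.3%, 27.8% and 28.3%, and several of the member probe sets counted here read the same gene. Among the non-overlapping probe sets 5 were lower with propiconazole and 3 with triadimefon, from Insig2, Srebf2 and, with propiconazole, Stard4. The higher ones were those of Abca1, 2 with each of these compounds and 1 with myclobutanil.

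**Figure D4:**
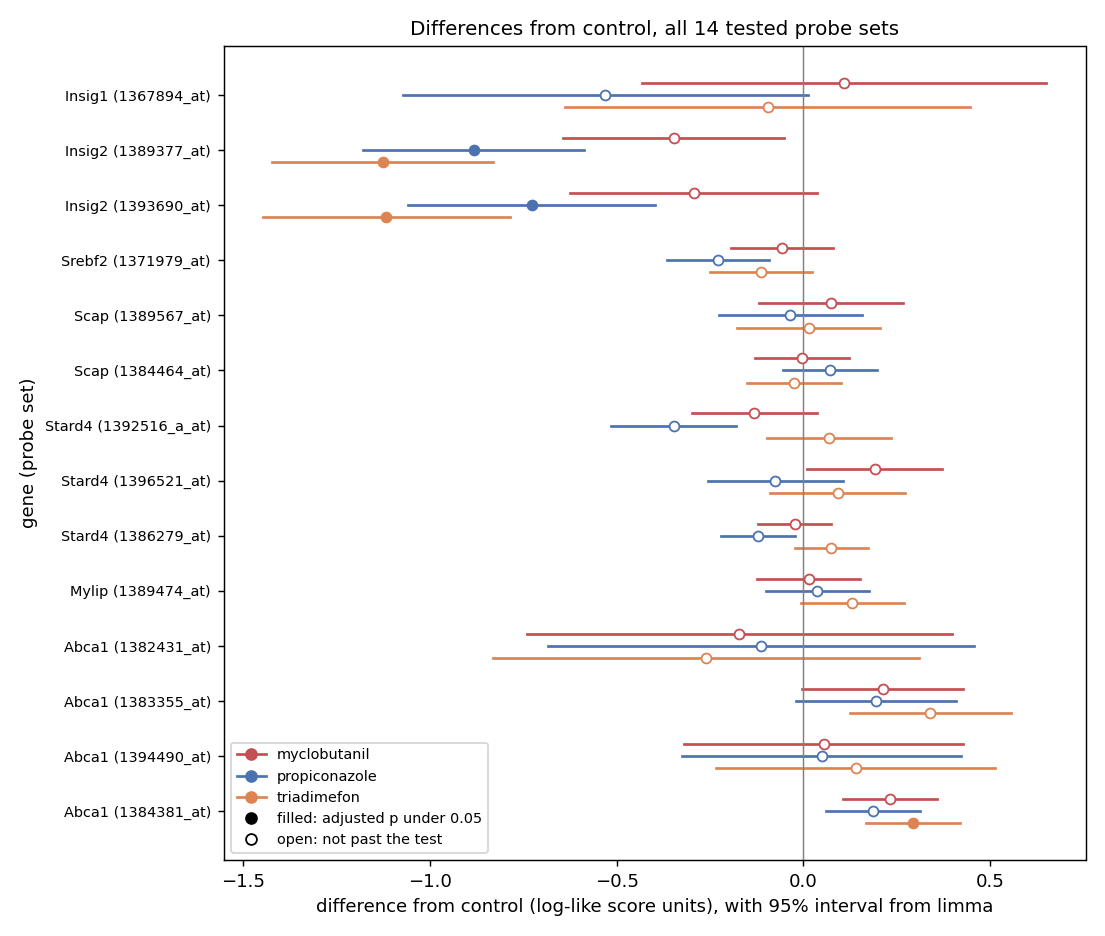
Difference from control in log-like score units (horizontal axis) with the 95% interval from limma for 14 probe sets of 7 genes (vertical axis), by compound; filled points passed an adjusted p under 0.05. Both Insig2 probe sets are filled for propiconazole and triadimefon, and 1384381_at of Abca1 is filled for triadimefon.

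At the matched dose of 300 mg/kg/day, myclobutanil, which carries a nitrile and a butyl chain, and propiconazole, which carries a dioxolane ring, were set against each other directly. Insig2 was higher in each myclobutanil liver than in each propiconazole liver, a difference of 0.534 ± 0.135 with a 95% interval from 0.239 to 0.83. This did not pass over all probe sets (limma adjusted p = 0.293, unadjusted p = 0.00211). Insig1 differed by 0.638 ± 0.247, with an interval from 0.0969 to 1.18, and Srebf2 by 0.171 ± 0.062, with an interval from 0.0351 to 0.307, again without overlap and without passing (limma adjusted p = 0.467 and 0.444).

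In the same comparison the main Stard4 probe set differed by 0.215 ± 0.0761 (interval 0.0483 to 0.382) and 1396521_at by 0.266 ± 0.0823 (interval 0.0853 to 0.447), and only 1396521_at was without overlap (limma adjusted p = 0.437 and 0.381). Intervals for Scap (-0.0821 to 0.301), Mylip (-0.161 to 0.115) and Abca1 (-0.628 to 0.511) included 0. Limma called 0 member genes and 0% of all probe sets here, with 4 of 7 member genes and 2200 of 21729 probe sets (10.1%) at an unadjusted p under 0.05, and array weights called 343 probe sets and 0 member genes. Of the 14 member probe sets, 5 did not overlap, all higher with myclobutanil, against 13.4% of all tested probe sets.

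Other genes of the pathway were counted in lists, with the same test over all probe sets. Of 15 measured genes that process SREBP or sense sterols in the endoplasmic reticulum, 0 were called with any compound (limma, with 3, 4 and 4 at an unadjusted p under 0.05 for myclobutanil, propiconazole and triadimefon, against 21.1%, 14.5% and 13.4% of all tested probe sets). The smallest p values belonged to Sar1b, a coat protein of transport vesicles, with myclobutanil (0.312 ± 0.0827), Ufd1, which helps extract proteins for breakdown, with propiconazole (0.226 ± 0.0615), and the ubiquitin ligase gene Rnf139 with triadimefon (0.276 ± 0.0793). Of 18 sterol synthesis genes, 2 rose with myclobutanil (Sqle by 1.03 ± 0.189 and Acat2 by 0.671 ± 0.144), and Nsdhl, a demethylation enzyme gene, was lower with propiconazole, at -0.418 ± 0.0791 (limma adjusted p = 0.026, 0.0445 and 0.0299). With triadimefon none of the 18 was called in limma, and Sqle stood at 0.879 ± 0.189. At an unadjusted limma p under 0.05, 8 were higher with myclobutanil, 2 lower with propiconazole, and 5 higher and 1 lower with triadimefon. The shares of all tested probe sets were 21.1%, 14.5% and 13.4%, both directions together. The median difference of that list was 0.337 with myclobutanil, -0.0986 with propiconazole and 0.229 with triadimefon. Over all tested probe sets the medians were -0.0135, -0.0123 and -0.0128.

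Among 12 lipoprotein uptake genes only Scarb2, a lysosomal membrane protein gene, was called, higher with myclobutanil by 0.52 ± 0.1 (limma adjusted p = 0.0328). At an unadjusted limma p under 0.05, 2 of the 12 were higher and 4 lower with myclobutanil, 2 lower with propiconazole and 1 lower with triadimefon. For this list and the next ones, the shares of all tested probe sets were 21.1%, 14.5% and 13.4%, both directions together. The receptor gene Lrp1 had the smallest p with propiconazole (-0.469 ± 0.127) and triadimefon (-0.429 ± 0.127) and did not pass (limma adjusted p = 0.108 and 0.17). Among 19 lysosomal and sterol transfer genes, Tmem97, whose product binds Npc1, rose with myclobutanil by 0.658 ± 0.102 (limma adjusted p = 0.0133). Stard13, whose product has a lipid-binding domain, was lower with propiconazole, at -0.539 ± 0.104, and with triadimefon, at -0.536 ± 0.104 (limma adjusted p = 0.0322 and 0.0429). At an unadjusted limma p under 0.05, 2 of the 19 were higher and 4 lower with myclobutanil, 3 lower with propiconazole, and 1 higher and 1 lower with triadimefon. Of 14 LXR genes and targets, the phospholipid transfer protein gene Pltp was lower with myclobutanil, at -0.533 ± 0.0807 (limma adjusted p = 0.0122), and 0 were called with the other compounds. At an unadjusted limma p under 0.05, 2 of the 14 were higher and 1 lower with myclobutanil, 4 lower with propiconazole, and 2 higher and 1 lower with triadimefon. The smallest p values in that list were those of Lpcat3 (-0.214 ± 0.0635) with propiconazole and Abcg8 (0.324 ± 0.109) with triadimefon.

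Of 11 efflux, esterification and oxysterol genes, Apoa1, the acceptor of cholesterol from Abca1, rose with propiconazole by 0.485 ± 0.0888 (limma adjusted p = 0.0278) and stood at 0.304 ± 0.0888 with triadimefon. At an unadjusted limma p under 0.05, 1 of the 11 was higher and 5 lower with myclobutanil, 1 higher with propiconazole, and 1 higher and 3 lower with triadimefon. The shares of all tested probe sets were 21.1%, 14.5% and 13.4%, both directions together. Lcat, which esterifies plasma cholesterol, stood at -0.48 ± 0.11 with myclobutanil (limma adjusted p = 0.0546). Of 12 insulin and fasting genes 0 were called with any compound. With each compound 1 of the 12 stood at an unadjusted limma p under 0.05, against 21.1%, 14.5% and 13.4% of all tested probe sets. The smallest p values were those of Pnpla3 with myclobutanil (0.335 ± 0.134), Sesn1 with propiconazole (-0.254 ± 0.0617) and Ppargc1a with triadimefon (0.31 ± 0.0832). Between myclobutanil and propiconazole 0 genes of any list were called in limma. There 11 of the 18 sterol synthesis genes were higher with myclobutanil at an unadjusted p under 0.05, against 10.1% of all tested probe sets. The genes with the smallest p in that comparison were Fdft1 (0.771 ± 0.117), Lipa (0.439 ± 0.0653), Lpcat3 (0.321 ± 0.0635), Scarb2 (0.31 ± 0.1), Hsd3b7 (-0.487 ± 0.135), Tat (-0.795 ± 0.235) and Nploc4 (-0.28 ± 0.141).

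Markers of other liver cells moved in the same arrays. For comparison, 0.787%, 0.621% and 0.281% of all tested probe sets were called lower with myclobutanil, propiconazole and triadimefon. Of 9 Kupffer cell and macrophage markers 5 were lower with myclobutanil and 0 with the other compounds (limma, 0 at an unadjusted p under 0.05 for these). Their mean score ranged from 0.237 to 0.814 with myclobutanil, 1.03 to 1.17 with propiconazole, 1.02 to 1.17 with triadimefon and 1.09 to 1.25 in control. Of 6 endothelial markers 1 was lower with myclobutanil, 2 with propiconazole and 0 with triadimefon (limma, 2 of 6 at an unadjusted p under 0.05), and their mean score ranged from 0.738 to 0.883, 0.72 to 0.854 and 0.86 to 0.93, against 0.954 to 1.06 in control. The score has no true zero, so no marker can be called absent. The part of these cells in the Insig2 and Abca1 values was not tested. The mean score of the hepatocyte markers ranged from 3.15 to 3.37 with myclobutanil, 3.37 to 3.43 with propiconazole, 3.36 to 3.42 with triadimefon and 3.31 to 3.40 in control, with 0 of 9 called in limma and 0 at an unadjusted p under 0.05 against control. Of 7 stellate cell markers 1 was higher and 1 lower with myclobutanil, 1 was lower with propiconazole and 0 were called with triadimefon (limma, 2 at an unadjusted p under 0.05), and none of 3 cholangiocyte or 5 blood cell markers was called with any compound (limma, at most 2 and 1 at an unadjusted p under 0.05). Between myclobutanil and propiconazole no marker was called in limma. At an unadjusted p under 0.05, 8 of 9 Kupffer cell and macrophage, 2 of 9 hepatocyte and 1 of 5 blood cell markers were lower with myclobutanil. In that comparison 1 of 7 stellate cell markers was higher, and the share of all tested probe sets was 10.1%. The 3′ minus 5′ score of Gapdh, a sign of RNA quality, was 0.624 ± 0.128 with myclobutanil, 0.434 ± 0.106 with propiconazole, 0.587 ± 0.212 with triadimefon and 0.659 ± 0.252 in control (SD, n = 3), and its part was not tested.

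The genes most like Insig2 over the 12 arrays were found by the mean absolute difference after each of 11842 genes was set to mean 0 and SD 1. They were Dipk2a (0.267 SD), Traf3ip2 (0.303), the clock activator gene Npas2 (0.303), Crybg2 (0.318) and the tight junction gene Cldn1 (0.344). Insig1 stood at 0.976 SD from Insig2 by that measure. The genes nearest to Insig1 were Rbm4b (0.326 SD), Nkd1 (0.423), Rnase1l2 (0.436), Gng11 (0.467) and Bbc3 (0.49). These genes were selected for this likeness, so their values are a description.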

How the data were processed

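Liver RNA of 12 rats was hybridized to 12 arrays, 1 liver each, per the labels' protocols. The deposited table holds 1 log-like score per probe set and array; how the authors summarised and normalized the probes, and with which software, is not given by the labels. The 57 control probe sets were removed, and the other 31042 were quantile normalized because array medians differed. Removing them before normalization was chosen after a first run that kept them. Dropping the 30% with the lowest mean kept 21729 for testing.

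In the platform's annotation, which may be outdated, 20826 probe sets have 1 gene, 436 have several and 9780 have none. For 20758, the current symbol was looked up by Entrez ID. A gene is represented by its tested probe set with the highest mean, called its main probe set. Probe sets with several genes name no gene.

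Group means of all 12 arrays were fitted with limma 3.58.1 (R 4.3.3), with 8 residual degrees of freedom, moderated variances with an intensity trend and Benjamini-Hochberg adjustment over all probe sets in each of 4 comparisons and in the F test. Tests were two-sided. The Insig1 and Insig2 gap was tested by exact permutation of arrays. Labels do not say more of how the rats of a group were housed or processed, so p-values measure the spread between these livers. The fit was tested on simulated data. Promoters came from RefSeq tables of GRCr8. Figures used matplotlib 3.10.9 under Python 3.11.15.

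All members were named. List genes were named by rule: the called ones with the 2 largest differences each way, or the 1 with the smallest p. The members and lists were chosen with earlier results of these data known. Alternatives covered normalization, filter, variance model, array weights, samples fitted, replicate block, left-out arrays and probe set. The second Insig2 probe set and 1384381_at of Abca1 were followed singly through them, a choice made after their values were seen. The number of arrays limits the precision.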

Additional observations from a re-analysis of the deposited data

How the results depend on the processing

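The sign of the Insig2 difference held in all fits tried against control. With propiconazole, the count of called member genes was 1, and it was 2 with the dimmest 50% left out, 3 without the intensity trend, 3 with array weights and 0 to 2 with 1 array left out. The genes added were Stard4 (limma adjusted p = 0.0418 with the 50% filter) and Srebf2 (limma adjusted p = 0.0394 without the trend). With myclobutanil, array weights gave 1 (Insig2, limma adjusted p = 0.0215) in place of 0. With triadimefon the count was 1, 2 if any probe set of a gene could count (chosen after seeing the data), and 0 to 1 with 1 array left out. The F test gave 1, 2 with array weights and 0 to 2 with 1 array left out. The Insig1 and Insig2 gap had F = 3.15 over the 4 groups, and 1.80 to 5.86 with 1 array left out. The fits of array weights stopped before full convergence. The cause of these changes was not tested.

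Without the dim filter, 1393690_at of Insig2 with propiconazole (limma adjusted p = 0.0577) and 1384381_at of Abca1 with triadimefon (0.0554) lost their calls. Median centring ended the propiconazole call of 1393690_at (limma adjusted p = 0.0524). The main Insig2 probe set stayed called after median centring with propiconazole and with triadimefon (limma adjusted p = 0.0121 and 0.00891). Replicate numbers did not pair the arrays: 3 of 18 same-numbered pairs had correlated deviations above 0.1 (range -0.494 to 0.495), and 3 of 12 arrays matched their own number best. With a replicate block the counts of called member genes were 1 with propiconazole and 1 with triadimefon. In that fit 1393690_at with propiconazole and 1384381_at with triadimefon were not called (limma adjusted p = 0.0928 and 0.067). Calls over all probe sets were 180, 121 and 87 for myclobutanil, propiconazole and triadimefon, against 395, 311 and 167 without the block. With myclobutanil replicate 1 left out they were 670, 969 and 611. Over all settings those totals ran from 8 to 1668, 36 to 1313 and 6 to 1028, and for myclobutanil against propiconazole from 0 to 343. Of 732 differences of single members under alternatives, 31 lost a call, 9 gained one, and 32 that were never called changed sign. Most of the 732 had no call in the main fit to lose. With propiconazole and with triadimefon, Insig2 stayed called in 9 of 9 other settings. With 1 array left out it stayed called in 9 and 10 of 12 fits. For 1393690_at the numbers were 5 and 8 of 8 settings, and 3 and 9 of 12 fits. For 1384381_at with triadimefon they were 6 of 8 and 3 of 12.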
